A study of Homo sapiens with 2 samples.

Results

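The metallothionein genes described here are *MT2A*, the *MT1* genes *MT1A*, *MT1E*, *MT1F*, *MT1G*, *MT1H*, *MT1M* and *MT1X*, and *MTF1*, which encodes the metal-responsive transcription factor of the family. They are 9 of the 36601 genes counted and were chosen by gene symbol, and all 9 symbols were found in both libraries. Cells were assigned to lineages with raw counts of 7 other genes (*HBZ*, *PF4*, *PTPRC*, *CDH5*, *MYH6*, *COL3A1* and *AFP*), so no member took part in forming the groups that are compared.

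Metallothioneins are small, cysteine-rich proteins that bind zinc and copper ions and also take up cadmium. Their genes are switched on when MTF1 binds zinc and attaches to metal response elements in their promoters, and glucocorticoids and oxidative stress can raise them too. *MT2A* and most *MT1* genes are made in many tissues, whereas *MT3* is known from brain and *MT4* from stratified epithelium. The fetal liver, where red cells form before birth, is known for high metallothionein.

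The 2 blood-generating heart-forming organoids (BG-HFOs), labelled 32.7 and 33.10, were dissociated one by one on day 14 and sequenced as 1 single-cell library each. Both came from hES3 NKX2.5-eGFP, a human embryonic stem cell line that carries a green fluorescent reporter in a cardiac gene. Aggregates were embedded in Matrigel and given a WNT activator, a WNT inhibitor and blood- and vessel-inducing cytokines, so there is no untreated group and every comparison is between lineages of the same organoids. The 2 organoids are of 1 line and 1 condition. The p-values rest on the spread between organoids within lineages, pooled over the lineages and drawn toward that of other genes. Sums from the same organoid were treated as independent, so small p-values do not measure how organoids vary.

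The libraries held 191152562 and 233818881 unique molecular identifiers (UMIs, 1 per captured transcript) in 16866 and 19948 barcodes, of which 100 barcode sequences occurred in both libraries. These marked 48 and 46 gated cells. Without them the summed metallothionein level of the cardiomyocytes of 32.7 went from 25.4 to 20.7 (in the unit of the levels below), and no other summed level of a tested lineage by more than 1%. A cell belonged to a gate when it reached the UMI threshold of 1 lineage gene and of no other. *HBZ* encodes an embryonic globin, *PF4* a platelet factor, *PTPRC* the leukocyte antigen CD45, *CDH5* the endothelial cadherin, *MYH6* a cardiac myosin, *COL3A1* a fibrillar collagen and *AFP* alpha-fetoprotein. The 7 gates held 813 and 1848 erythroid cells (*HBZ*), 977 and 2694 megakaryocytic cells (*PF4*), 742 and 374 leukocytes (*PTPRC*), 1758 and 1453 endothelial cells (*CDH5*), 969 and 1100 cardiomyocytes (*MYH6*), 2791 and 2446 mesenchymal cells (*COL3A1*), and 217 and 10 endodermal cells (*AFP*), in organoids 32.7 and 33.10. Each gate had the highest summed level of its own marker list in both organoids. The *HBZ* markers were nevertheless also high in the *PF4* gate (8693 and 9638 against 23580 and 22330 in the *HBZ* gate, in counts per 1000000 UMIs of the gate, or CPM). The *AFP* gate was too small in 33.10 for a test and is only described.

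The 8 metallothionein members of the rule lie within 75.6 kb of chromosome 16 (GRCh38), from 56608584, the start of *MT2A*, to 56684196, the end of *MT1X*. All are read from the plus strand except *MT1G*, which lies head to head with *MT1H* with 1748 bases between them. *MTF1* lies on chromosome 1 (37809574 to 37859592, minus strand). RefSeq promoter sequences (GRCh38.p14) matched 4 of the 9 members, and those of the metallothioneins among them are shown, because the metal response element is the sequence through which MTF1 acts on this family. Each is the 250 bases before the start, 5′ to 3′ on the plus strand of chromosome 16, with capitals for the core motifs TGCACNC and TGCGCNC on either strand (a match on the minus strand reads in reverse complement).
*MT2A*, chr16:56608334-56608583: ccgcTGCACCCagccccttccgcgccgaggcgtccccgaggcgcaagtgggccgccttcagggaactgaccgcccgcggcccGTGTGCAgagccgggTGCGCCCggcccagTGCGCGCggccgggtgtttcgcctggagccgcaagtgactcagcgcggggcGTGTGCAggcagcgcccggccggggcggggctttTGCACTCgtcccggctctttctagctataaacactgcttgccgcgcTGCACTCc
*MT1X*, chr16:56682220-56682469: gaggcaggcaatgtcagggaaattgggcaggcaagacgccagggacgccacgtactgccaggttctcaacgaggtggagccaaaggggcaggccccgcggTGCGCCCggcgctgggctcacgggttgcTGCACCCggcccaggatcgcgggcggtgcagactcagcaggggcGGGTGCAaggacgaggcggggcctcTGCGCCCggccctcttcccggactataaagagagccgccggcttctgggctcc
*MT1H*, chr16:56669564-56669813: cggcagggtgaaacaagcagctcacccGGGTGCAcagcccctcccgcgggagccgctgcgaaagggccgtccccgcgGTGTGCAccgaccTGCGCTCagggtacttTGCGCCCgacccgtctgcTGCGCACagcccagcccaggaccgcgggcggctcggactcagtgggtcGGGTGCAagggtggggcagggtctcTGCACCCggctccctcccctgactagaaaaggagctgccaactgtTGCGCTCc

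The core occurred 7 times before *MT2A*, 8 times before *MT1H* and 4 times before *MT1X*. It also occurred 3 times each before *MT1B* and *MT4*, metallothioneins outside the members that had almost no UMIs. Of 35116 RefSeq promoters of the same length, 24.8% held at least 1 core, 1.58% at least 3, 0.370% at least 4 and 0.0313% at least 7. No core was found in the window before *MTF1*. A match is a description of the letters only.

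Metallothionein transcripts were highest in erythroid cells, followed by leukocytes, and lowest in endothelial cells and cardiomyocytes. Summed over the 8 metallothioneins, the *HBZ* gate held 517 CPM in organoid 32.7 and 1179 CPM in 33.10 (mean 848 ± 468, SD, n = 2). The *PTPRC* gate held 285 and 244 CPM (264 ± 29.3), the *COL3A1* gate 86.3 and 175 (130 ± 62.4) and the *PF4* gate 59.5 and 97.7 (78.6 ± 27.0). Cardiomyocytes had 25.4 and 31.1 CPM (28.2 ± 4.05), and endothelial cells 13.9 and 39.2 (26.5 ± 17.9). The mean of the erythroid cells was 31.9-fold that of the endothelial cells. The *HBZ* and *PTPRC* gates overlapped no other gate. The *COL3A1* gate overlapped the *PF4* gate, and the *MYH6* gate the *CDH5* gate.

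*MT2A*, the most abundant member, had the same order except that endothelial cells stood above cardiomyocytes. Its level in erythroid cells was 325 CPM in 32.7 and 813 CPM in 33.10, against 182 and 175 CPM in leukocytes and 69.5 and 163 CPM in mesenchymal cells. Megakaryocytic cells had 53.1 and 85.5 CPM, cardiomyocytes 14.9 and 21.1 and endothelial cells 12.1 and 36.3. Organoid 33.10 was above 32.7 in 5 of the 6 lineages, by up to 3.00-fold in endothelial cells, and leukocytes were the exception at 0.961-fold. The difference between organoids therefore ran through most lineages, while the erythroid cells were the highest in each organoid.

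*MT1X* was the most abundant *MT1* transcript in both high lineages. Erythroid cells had 98.7 and 221.5 CPM of *MT1X*, leukocytes 51.2 and 42.5, and the other 4 lineages between 1.10 and 8.19. *MT1G* was more restricted, with 57.6 and 81.1 CPM in erythroid cells, 19.3 and 3.20 in leukocytes and no more than 2.03 in any other lineage. The leukocyte value of *MT1G* thus rested on organoid 32.7.

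*MT1E* followed a wider pattern, at 33.6 and 47.9 CPM in erythroid cells, 13.3 and 13.4 in leukocytes, 7.51 and 2.92 in mesenchymal cells and 5.14 and 4.12 in cardiomyocytes. Endothelial cells stood lowest for *MT1E*, at 0.247 and 0.690 CPM. *MT1F* had another order, with leukocytes first (12.7 and 8.06 CPM), erythroid cells next (1.00 and 3.90) and endothelial cells at 1 UMI in 32.7 and 0 in 33.10, which allows up to 0.170 CPM (95% exact Poisson bound). *MT1H* reached 11.5 CPM in the erythroid cells of 33.10 but 1.00 CPM in those of 32.7, and 6.25 and 1.54 CPM in leukocytes. The organoids thus differed 11.5-fold for *MT1H* in erythroid cells, so its place in the order is the least certain of the tested members.

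*MT1A* and *MT1M* were near the floor, with 2 and 10 UMIs over all 12 sums of the 6 lineages, and did not pass the filter on low counts. Of the other metallothioneins in the annotation, *MT1B* and *MT1HL1* had no UMI in any gate and *MT4* had 4 in the gates. *MT3* was present at 3.25 and 1.37 CPM in mesenchymal cells and 0.911 and 1.22 CPM in cardiomyocytes, and at no more than 0.258 CPM in the other tested lineages.

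*MTF1* did not share the pattern of its targets. Its level was 7.77 and 8.88 CPM in erythroid cells, 25.4 and 26.6 in leukocytes, 9.28 and 10.5 in mesenchymal cells and 7.10 and 9.01 in megakaryocytic cells. Cardiomyocytes had 10.6 and 9.71 CPM of *MTF1* and endothelial cells 12.9 and 12.4. The highest lineage was 3.23-fold the lowest, compared with 31.6-fold for *MT2A*, and the lineage with most metallothionein was next to last for *MTF1*.

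**Figure D1:**
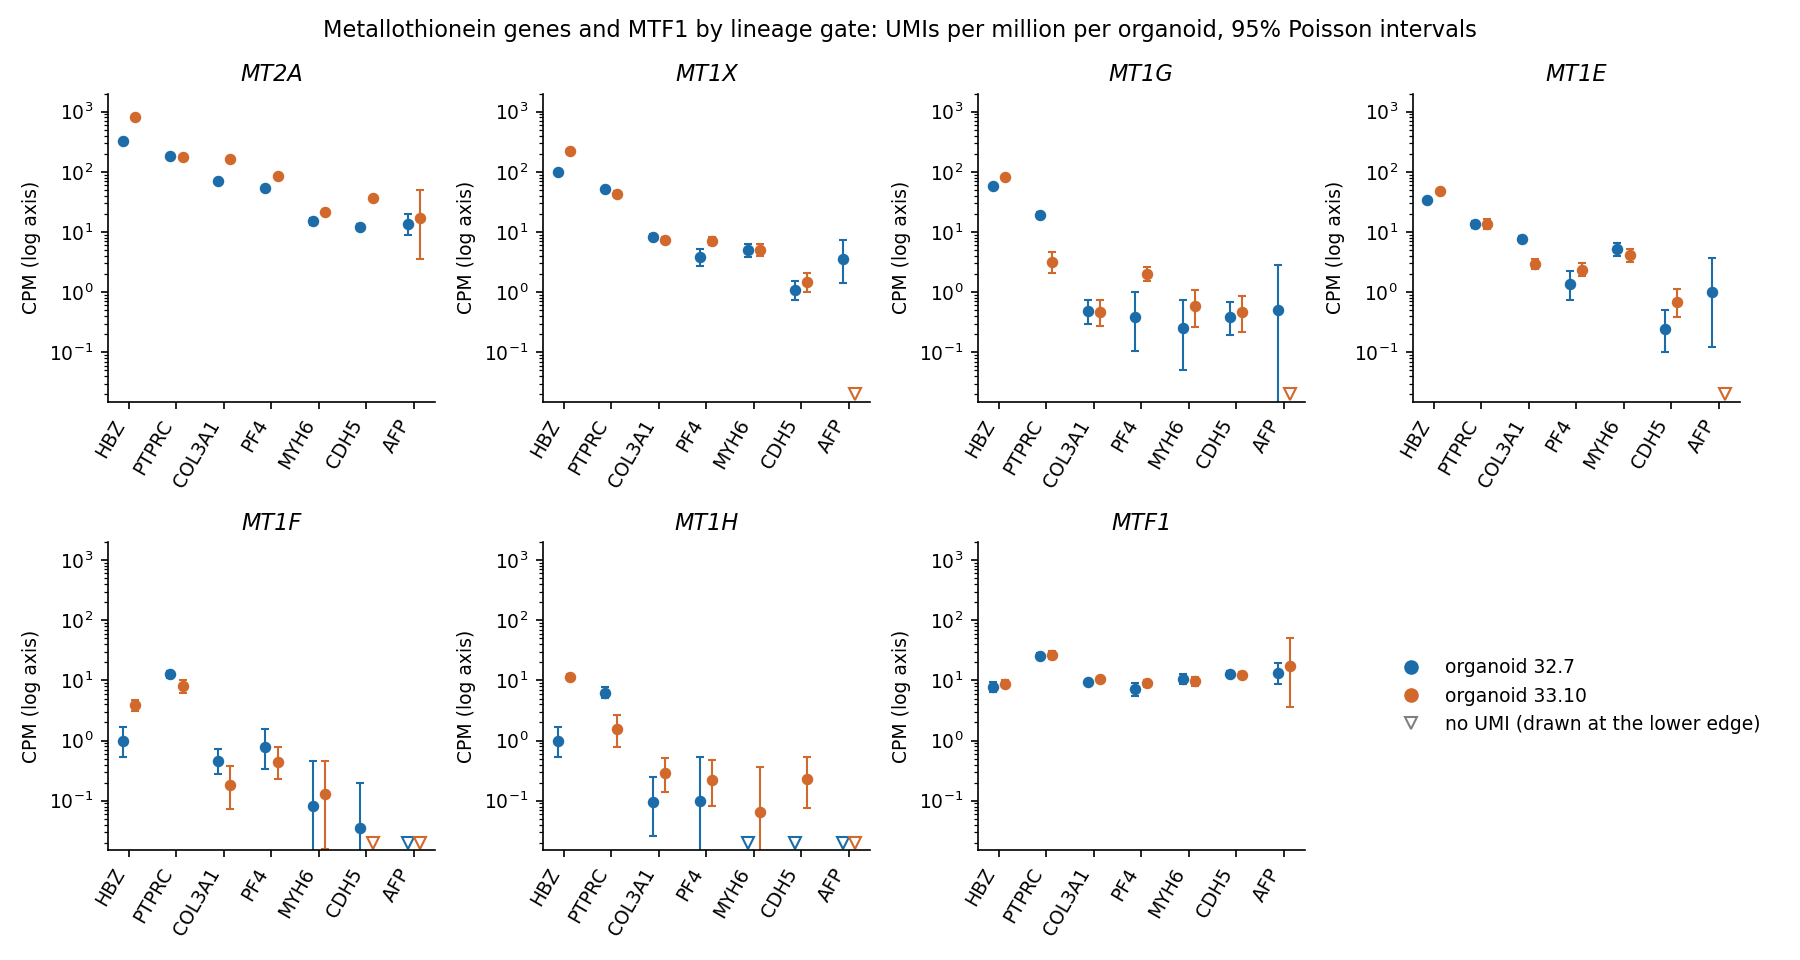
Levels of 7 members in CPM (log axis) for each lineage gate, with 1 point per organoid (32.7 and 33.10) bars for the 95% Poisson interval of counting error and open triangles at the lower edge for no UMI. The 6 metallothioneins are highest in the *HBZ* and *PTPRC* gates, whereas *MTF1* lies between 7.10 and 12.9 CPM in 5 of the tested lineages and at 25.4 and 26.6 in the *PTPRC* gate.

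Each lineage was compared with the mean of the other 5 in edgeR, on UMIs summed per gate and organoid, with the quasi-likelihood test and adjustment of p by Benjamini-Hochberg across 21456 genes. For the *HBZ* gate, 6 of the 7 tested members were higher and 0 lower, where 22.7% of all tested genes were higher and 32.8% lower in that comparison. The members that passed the filter did so mainly through the lineages in which they were high, so the count does not cover *MT1A* and *MT1M*. The median log2 fold change of the 7 members was 4.09, beside -0.26 for all genes, a shift of the whole comparison relative to which the values below can be read.

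In erythroid cells *MT1G* rose by 6.36 on the log2 scale (SE 0.38, adjusted p = 2.46e-07), *MT1X* by 4.96 (SE 0.20, adjusted p = 2.01e-08) and *MT2A* by 3.69 (SE 0.33, adjusted p = 3.54e-06; edgeR with Benjamini-Hochberg adjustment). *MT1H* (5.17 ± 0.72), *MT1E* (4.09 ± 0.26) and *MT1F* (3.23 ± 0.50; log2 fold change ± SE) also passed the test. These 6 calls held under every alternative tried. Before thinning, *MT1G* was found in 32 of 813 erythroid cells of 32.7 and 129 of 1848 of 33.10, and *MT1H* in 5 and 31. The erythroid values of *MT1G* and *MT1H* thus also rested on few cells of the gate. For *MT1F* 1 organoid decided much of the size, since 32.7 alone gave 1.04 and 33.10 alone 3.68. Organoid 32.7 alone also gave less than 33.10 alone for *MT1H* (2.80 and 5.22), *MT1X* (4.00 and 4.98) and *MT2A* (2.97 and 3.51). Such values are CPM ratios without the normalization of the fit, so both organoids can lie on the same side of the fitted value. For *MTF1* they were -0.60 in 32.7 and -0.49 in 33.10, both below the fitted value that follows. *MTF1* had a log2 fold change of -0.16 in erythroid cells (SE 0.11, edgeR adjusted p = 0.245). It was called lower there with doubled thresholds (-0.35, adjusted p = 0.0241) and with gates per 10000 UMIs (-0.30, adjusted p = 0.0472).

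In leukocytes all 7 tested members were higher, against 28.3% of all genes higher and 26.8% lower. *MT1F* rose by 5.37 on the log2 scale (SE 0.42, edgeR adjusted p = 9.7e-07), *MT1X* by 2.55 (SE 0.23, adjusted p = 3.18e-06) and *MTF1* by 1.501 (SE 0.10, adjusted p = 2.7e-07). *MT2A* rose by 1.39 (SE 0.36, edgeR adjusted p = 0.0069), *MT1E* by 1.86, *MT1G* by 3.06 and *MT1H* by 4.13. Before thinning, *MT1G* was found in 13 of 742 leukocytes of 32.7 and 11 of 374 of 33.10, and *MT1H* in 5 and 7. The values of *MT1G* and *MT1H* thus rested on few cells of the gate. With the gate thresholds doubled only 4 of the 7 passed, and *MT2A* (1.01, edgeR adjusted p = 0.0805), *MT1G* (0.94, adjusted p = 0.16) and *MT1H* (0.75, adjusted p = 0.64) were lost. *MT2A* (0.81, edgeR adjusted p = 0.122) and *MT1G* (1.31, adjusted p = 0.143) were also lost with cells of several gates kept, and *MT1H* with gates per 10000 UMIs (adjusted p = 0.285) and without cells over 20000 UMIs (0.0628). Organoid 33.10 alone gave 0.79 for *MT1G*, 1.80 for *MT1H* and 0.85 for *MT2A*, and 32.7 alone 4.16, 5.92 and 1.97.

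Among the remaining lineages no member was called higher. Their reference included the erythroid and leukocyte values, so a lower call does not place a lineage below the other low ones. *MT1F* and *MT1G* also passed the filter on low counts mainly through erythroid cells and leukocytes. The counts of lower members given below are thus no separate result about these lineages. *MT1X*, called lower in mesenchymal cells, was 8.19 and 7.29 CPM there and at most 7.05 in megakaryocytic cells, cardiomyocytes and endothelial cells. *MT1G* was 0.485 and 0.466 CPM in mesenchymal cells, 0.249 and 0.579 in cardiomyocytes and 0.389 and 0.460 in endothelial cells. Endothelial cells had 5 of 7 members lower (27.2% of all genes lower, 29.3% higher), namely *MT1F* (log2 fold change -5.28), *MT1E* (-4.28), *MT1X* (-3.98), *MT1G* (-3.03) and *MT2A* (-2.38 ± 0.48, edgeR adjusted p = 0.0014). Cardiomyocytes had 4 of 7 lower (29.1% of all genes lower, 31.1% higher), which were *MT1G* (-3.00), *MT2A* (-2.86), *MT1X* (-1.61) and *MTF1* (-0.41). In mesenchymal cells *MT1G* (-2.84), *MT1X* (-0.87) and *MTF1* (-0.46) were lower (22.2% of all genes lower, 31.6% higher), whereas *MT2A* had a log2 fold change of 0.34 (SE 0.38, edgeR adjusted p = 0.484). Megakaryocytic cells also had 3 of 7 lower (26.1% of all genes lower, 24.7% higher), *MT1E* (-1.36), *MT1X* (-1.04) and *MTF1* (-0.44), with *MT2A* at -0.18 (SE 0.41, edgeR adjusted p = 0.749). The endothelial calls of *MT2A*, *MT1E* and *MT1X* held under every alternative, and each of the others was lost in at least 1. Organoid 33.10 alone gave -3.33 for *MT1E* in endothelial cells and -2.10 for *MT1G* in cardiomyocytes, and 32.7 alone -4.11 for *MT1F* in endothelial cells (1 UMI there) and -2.18 for *MT1G* in mesenchymal cells. For *MTF1* in cardiomyocytes 32.7 alone gave -0.0631 and 33.10 alone -0.33.

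**Figure D2:**
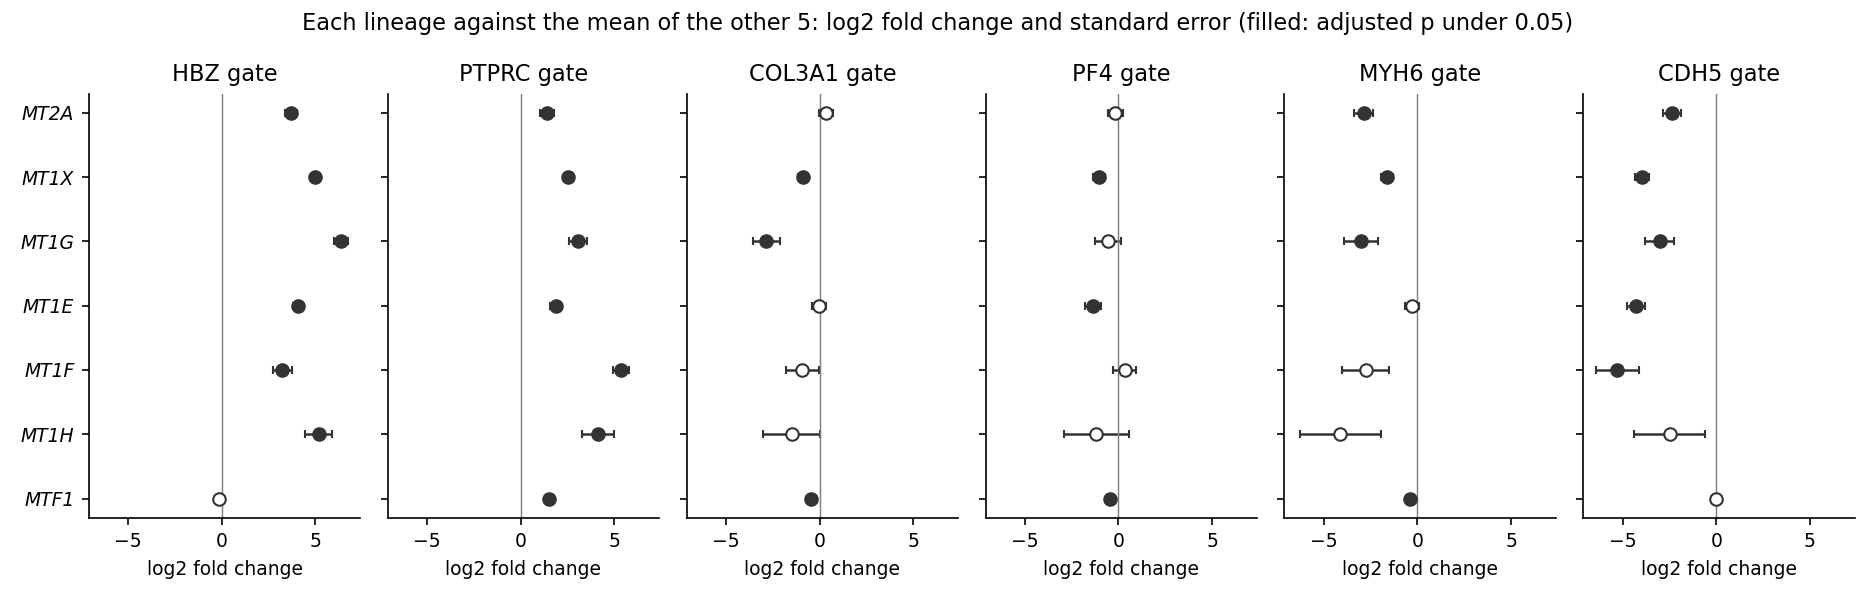
Log2 fold change of 7 members in each lineage against the mean of the other 5 lineages (x axis), with the standard error as a bar and filled points where the edgeR adjusted p is under 0.05. The 6 metallothioneins lie right of 0 in the *HBZ* and *PTPRC* gates, whereas *MTF1* is at -0.16 in the *HBZ* gate and at 1.501 in the *PTPRC* gate.

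Neighbours in the order of summed levels were then tested against each other in the same fit. Erythroid cells exceeded leukocytes in 4 members and were lower in 2 (44.2% of all genes were called in either direction). *MT1G* (2.75 ± 0.54, edgeR adjusted p = 0.00161), *MT1X* (2.01 ± 0.31, adjusted p = 0.000338), *MT2A* (1.91 ± 0.52, adjusted p = 0.0117) and *MT1E* (1.86 ± 0.39, adjusted p = 0.00231) were higher in erythroid cells. *MT1F* fell by 1.78 (SE 0.50, edgeR adjusted p = 0.0139) and *MTF1* by 1.39 (SE 0.14, adjusted p = 1.49e-05) on the log2 scale, and *MT1H* had 0.86 (SE 0.84, adjusted p = 0.443). Organoid 33.10 alone gave more than 32.7 alone for *MT2A* (2.22 and 0.84), *MT1G* (4.64 and 1.58) and *MT1X* (2.38 and 0.95), less for the fall of *MT1F* (-1.05 and -3.62), and the opposite sign for *MT1H* (2.85 and -2.60). *MT1H* was called higher in erythroid cells with doubled thresholds (4.24, edgeR adjusted p = 0.00584) and without cells over 20000 UMIs (2.64, adjusted p = 0.0366). *MT2A* missed the threshold with gates set per 10000 UMIs (edgeR adjusted p = 0.0753), with cells of several gates kept (0.0893) and with 10% of the library profile removed (0.0726), *MT1G* with cells of several gates kept (0.103) and *MT1F* with 10% of the library profile removed (0.0603).

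Leukocytes exceeded mesenchymal cells in 6 of 7 members (61.2% of all genes called), with *MT1F* at 5.24, *MT1G* at 4.91, *MT1H* at 4.69, *MT1X* at 2.85, *MTF1* at 1.64 and *MT1E* at 1.58. Organoid 33.10 alone gave less for *MT1G* (2.77) and *MT1H* (2.43), and 32.7 alone less for *MT1E* (0.82). The leukocyte counts of *MT1G* and *MT1H* came from the few cells given above. *MT1H* missed the threshold with doubled thresholds (edgeR adjusted p = 0.35) and gates per 10000 UMIs (0.13), and *MT1G* with cells of several gates kept (0.0869). *MT2A* did not pass (0.88 ± 0.51, edgeR adjusted p = 0.159) but passed with the organoid as a block (1.06, adjusted p = 0.00771). Its size came from 32.7, which alone gave 1.39, against 0.0988 in 33.10 alone. Mesenchymal and megakaryocytic cells differed in 0 of 7 members by edgeR (57.8% of all genes called), with 1 member at an unadjusted p under 0.05 and 1 called by DESeq2. Their *MT2A* difference was 0.43 (SE 0.51, edgeR adjusted p = 0.496). Megakaryocytic cells exceeded cardiomyocytes in *MT2A* alone (2.24 ± 0.55, edgeR adjusted p = 0.00465, 59.4% of all genes called), and cardiomyocytes exceeded endothelial cells in *MT1E* (3.34 ± 0.60, adjusted p = 0.000625) and *MT1X* (1.97 ± 0.47, adjusted p = 0.0038, 57.8% of all genes called). *MT2A* in megakaryocytic cells against cardiomyocytes did not pass with cells of several gates kept (0.75, edgeR adjusted p = 0.304), doubled thresholds (1.27, adjusted p = 0.113) or gates per 10000 UMIs (1.38, adjusted p = 0.105). *MT1E* in cardiomyocytes against endothelial cells was 2.54 in 33.10 alone and 4.29 in 32.7 alone, and *MT1X* there did not pass with thinned cells (1.23, adjusted p = 0.136).

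The mix of family members differed between lineages. A UMI marks 1 transcript at its 3′ end, so shares of the family UMIs were taken without correction for length. *MT2A* made up 62.9% and 68.9% of the metallothionein UMIs of erythroid cells and 63.8% and 71.8% of those of leukocytes (32.7 and 33.10), against 80.6% and 93.6% in mesenchymal cells, 89.2% and 87.5% in megakaryocytic cells and 87.0% and 92.7% in endothelial cells. *MT1X* accounted for 19.1% and 18.8% in erythroid cells and 18.0% and 17.4% in leukocytes. Both high lineages thus carried a larger *MT1* part than mesenchymal, megakaryocytic and endothelial cells in each organoid. *MT1G* was the next in erythroid cells (11.2% and 6.88%), and *MT1F* was a larger part of the leukocyte family (4.46% and 3.31%) than of the erythroid one (0.194% and 0.331%). Cardiomyocytes were near both high lineages in *MT2A* (58.8% and 67.9%) and *MT1X* (19.6% and 16.4%), of only 306 and 483 family UMIs. They differed from them by a larger *MT1E* part (20.3% and 13.3%).

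The erythroid metallothionein UMIs came from a minority of cells. With each cell thinned to 3000 UMIs, 79.6% of the erythroid cells of 32.7 and 60.3% of those of 33.10 had none, while the top 10% of cells held 94.0% and 81.2% of the family UMIs. Cells with 10 or more of their 3000 UMIs from the family were 38 of 715 (5.31%) and 179 of 1712 (10.5%), and the highest cells had 104 and 575. Among leukocytes such cells were 14 of 732 and 3 of 363, and in every other gate at most 9 cells. High-level cells were thus found mainly among erythroid cells in both organoids.

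Detection at equal depth gave a flatter picture than the levels. *MT2A* was found in 17.5% (95% exact binomial interval 14.8 to 20.5) and 36.7% (34.4 to 39.0) of erythroid cells, in 17.3% (14.7 to 20.3) and 28.7% (24.1 to 33.6) of leukocytes and in 13.9% and 28.4% of mesenchymal cells. Megakaryocytic cells had 8.91% and 12.0%, endothelial cells 3.62% and 7.13% and cardiomyocytes 1.48% and 4.18%. Cells under 3000 UMIs were left out (98 and 136 in the *HBZ* gate), and the unthinned shares of *MT2A* were 30.8% and 53.5% in erythroid cells and 5.06% and 12.3% in cardiomyocytes at median depths of 12453 and 10178 and of 11167 and 12500 UMIs. Unthinned leukocytes, which were deeper (medians of 17589.5 and 17120 UMIs), had more, at 45.3% and 65.2%, and mesenchymal cells of 32.7 had 33.8%. At 3000 UMIs any metallothionein was found in 24.6% and 35.5% of leukocytes and 20.4% and 39.7% of erythroid cells. In 32.7 erythroid cells and leukocytes had nearly the same share of *MT2A*-positive cells, although the erythroid level was higher.

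Free erythroid RNA was gauged through *HBZ*, which had 47410 and 41690 CPM in its own gate and between 56.0 and 227 CPM in the other tested gates. Cells with 50 or more *HBZ* UMIs were kept out of those other gates, so the gate rule itself bounded these counts. In the ratio of *MT2A* to *HBZ* of erythroid cells, these *HBZ* counts would carry 0.384 to 4.43 CPM of *MT2A*, below the 12.1 to 182 CPM that were found there. For *MT1G* they would carry 0.0681 to 0.442 CPM, against 0.249 to 19.3 CPM found. Gate by gate the margin of *MT1G* was narrow where its level was low. In 33.10 it was 0.219 against 0.466 CPM found in mesenchymal cells, 0.235 against 0.579 in cardiomyocytes and 0.204 against 0.460 in endothelial cells. It was wider in megakaryocytic cells (0.442 against 2.03) and leukocytes (0.183 against 3.20) of 33.10. Removal of 10% of each sum in the proportions of the whole library, an assumed share, lowered the cardiomyocyte sum from 28.2 to 9.74 CPM. *HBZ* had 4082 and 5739 CPM over all cells, against 73.3 and 120.6 CPM in the cardiomyocyte gate. The share removed would thus take more *HBZ* than these bounded counts held. Since *HBZ* also set the gates, its counts do not measure the true share of free RNA. Low levels depend on the share assumed, and the part of free RNA in them was not tested.

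**Figure D3:**
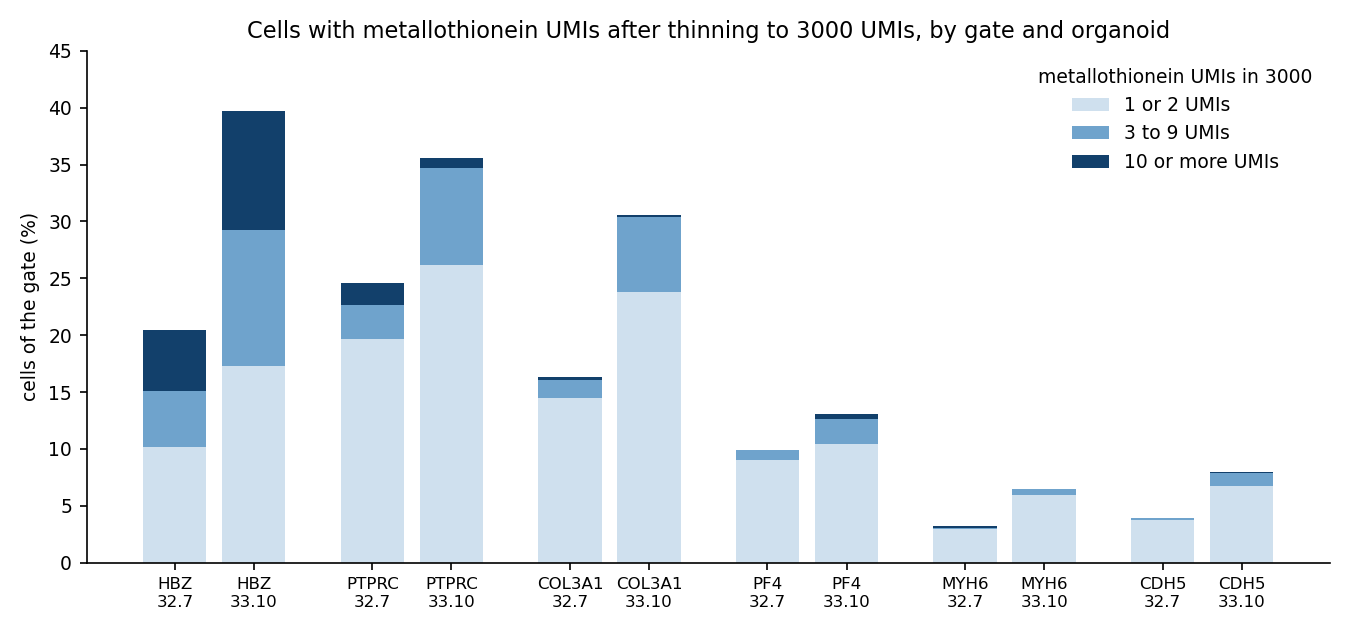
Share of cells (%) with 1 or 2, 3 to 9, or 10 or more metallothionein UMIs after thinning to 3000 UMIs, per gate and organoid, with the remaining cells at 0. Cells with 10 or more reach 5.31% and 10.5% in the *HBZ* gate and are at most 1.91% elsewhere.

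*MT2A* tended to be high in the same erythroid cells as *MT1X*, *MT1G* and *MT1E*, and *MT1X* in the same cells as *MT1G*. Over cells thinned to 3000 UMIs, Pearson's r of log2(UMI + 1) was 0.65 and 0.667 for *MT2A* with *MT1X* (715 cells of 32.7 and 1712 of 33.10), 0.492 and 0.406 for *MT2A* with *MT1G*, and 0.372 and 0.412 for *MT2A* with *MT1E*. *MT1X* with *MT1G* gave 0.723 and 0.454 in erythroid cells, and *MT1X* with *MT1E* 0.251 and 0.401. *MT2A* with *MT1F* gave 0.11 and 0.217 there, and *MT1G* with *MT1E* 0.212 and 0.336. In leukocytes *MT2A* with *MT1X* gave 0.524 and 0.313 (732 and 363 cells). The leukocyte values were 0.356 and 0.082 for *MT2A* with *MT1G*, and 0.238 and -0.001 for *MT2A* with *MT1F*. *MT2A* with *MTF1* gave 0.002 and 0.034 in erythroid cells, and *MT2A* with *HBZ* -0.001 in both. These are descriptions over cells that share a library, and most cells are at 0 for each gene.

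The cells with most metallothionein also had more *SLC30A1*, which encodes the plasma membrane exporter ZnT1 and is, like the metallothioneins, a known MTF1 target. The comparison was chosen after the values had been seen and has no test. In erythroid cells without family UMIs in 3000, *SLC30A1* stood at 4.61 CPM in 32.7 (95% exact Poisson interval 3.41 to 6.09) and 4.08 in 33.10 (3.15 to 5.19). With 1 to 9 family UMIs it was 8.77 (4.91 to 14.5) and 11.7 (9.04 to 14.9), and with 10 or more 44.2 (27.3 to 67.5) and 56.4 (45.9 to 68.5), from 21 and 101 *SLC30A1* UMIs. The order of the 3 classes was the same in both organoids, and the intervals of the highest class lay above those of the others.

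*HMOX1*, the haem oxygenase induced by oxidative stress, was 7.24 and 13.3 CPM in erythroid cells without family UMIs and 35.7 and 94.9 CPM in those with 10 or more, with 53.8 and 40.4 CPM in between. *GCLM*, also of the oxidative stress list, was 24.7 and 30.9 CPM without, 69.0 and 61.1 with 1 to 9 and 71.5 and 71.4 with 10 or more. Its intervals without family UMIs lay below the others in both organoids. *MTF1* itself was 7.99 and 8.90 CPM without and 4.21 and 8.93 CPM with 10 or more. *SLC30A10*, known as a manganese exporter, had 110.8 and 102.5 CPM without and 88.3 and 97.1 with 10 or more. The high cells had less of the proliferation gene *MKI67* (25.2 and 35.2 CPM against 123 and 76.3). They had fewer UMIs (medians of 12316.5 and 8750 against 15363 and 12797.5) and fewer detected genes (medians of 2571 and 2253 against 3697 and 3415). Their mitochondrial share was lower (2.54% and 1.73% against 4.53% and 3.92%), and the part of these differences in the result was not tested.

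**Figure D4:**
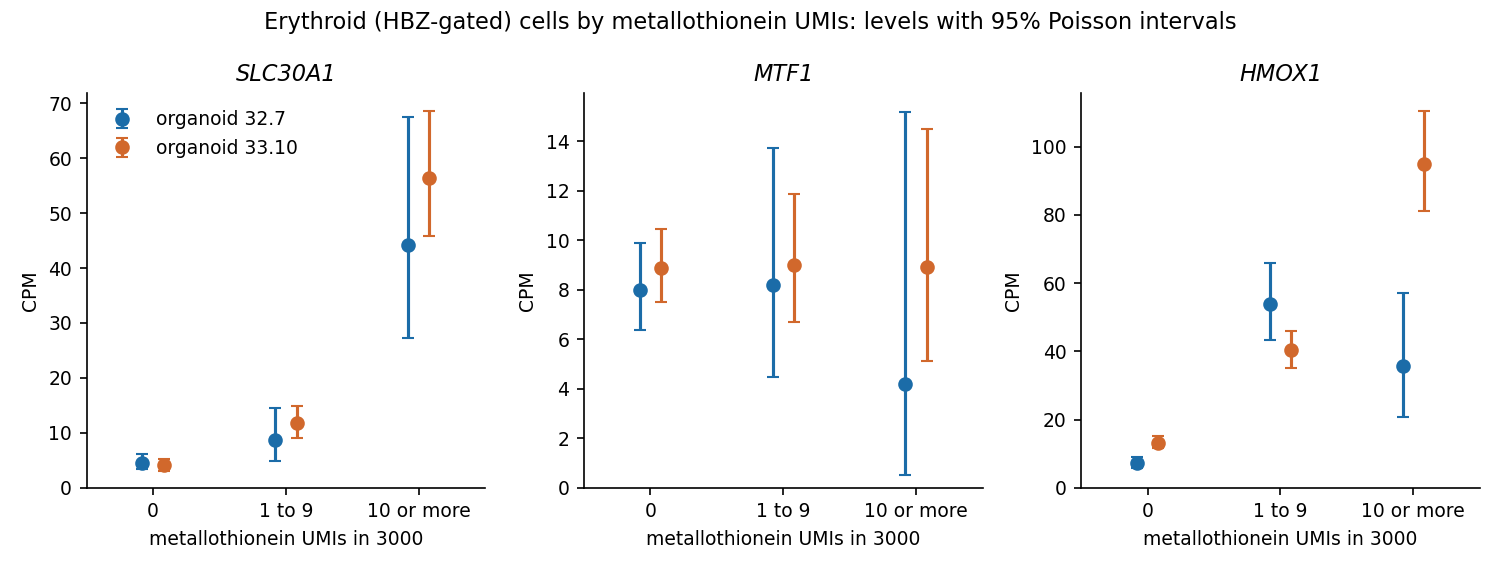
Levels of *SLC30A1*, *MTF1* and *HMOX1* in CPM, metallothionein UMIs left out of the totals, in erythroid cells grouped by the metallothionein UMIs among 3000, with 95% Poisson intervals for organoids 32.7 and 33.10. *SLC30A1* increases from 4.61 and 4.08 to 44.2 and 56.4 CPM, and *MTF1* stays at or under 9.01 CPM.

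The other lineages had few cells with 10 or more family UMIs, so there *SLC30A1* was set side by side in cells with any family UMI and cells without, and the size of its difference was not tested between lineages. Divided in the same way, erythroid cells had 16.5 (11.5 to 22.8) and 22.6 CPM (19.3 to 26.3) with, against 4.61 and 4.08 without, and the 1 to 9 class of 32.7 overlapped the cells without. Leukocytes had 10.3 and 10.3 CPM with and 8.23 and 8.05 without, mesenchymal cells 7.12 and 5.91 with and 6.06 and 6.33 without, and megakaryocytic cells 4.91 and 7.51 with and 9.15 and 8.49 without. The Poisson intervals of these 3 lineages, of cardiomyocytes and of endothelial cells overlapped within each organoid. *HMOX1* was higher in cells with family UMIs in leukocytes (112 and 174 CPM against 48.3 and 56.7), mesenchymal cells (11 and 23.3 against 6.14 and 12.9) and cardiomyocytes (15.3 and 17.0 against 1.65 and 2.69), with intervals apart in both organoids. In megakaryocytic cells (19.6 and 13.9 against 5.36 and 10.8) and endothelial cells (23.3 and 8.76 against 9.74 and 9.50) they were apart in 32.7 alone. *GCLM* was lower with family UMIs in megakaryocytic cells (54.0 and 64.6 CPM against 77.1 and 77.4), with intervals apart, and its intervals overlapped in the other lineages of this comparison.

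Erythroid cells were also ordered by the share of their UMIs from *HBZ*, in 4 equal classes per organoid and with globin UMIs left out of the totals. In 33.10 the summed level was 984 and 905 CPM in the lower classes and 1693 and 1891 CPM in the upper ones, and *MT1G* went from 48.3 to 214.6 CPM between the lowest and the highest class. In 32.7 the sum was 688, 306, 719 and 634 CPM from lowest to highest, without an order, although *MT1G* had 47.2 CPM in the lowest and 107 in the highest class. This division was added after the data had been seen.

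Proliferating cells, with at least 3 UMIs of *MKI67* and *TOP2A* together, were compared with cells at 0 for both inside each lineage. Of 7 tested members 1 was lower and 0 higher (40.2% of 19440 genes were called in either direction). *MT1X* fell by 0.64 on the log2 scale (SE 0.23, edgeR adjusted p = 0.0338), where the median of all genes was -0.12, and did not pass with the organoid as a block (adjusted p = 0.0657). *MT2A* had -0.21 (SE 0.27, edgeR adjusted p = 0.589) over the lineages and passed without the filter on low counts (-0.23, adjusted p = 0.00601), although in erythroid cells its level was 161 and 460 CPM in cycling and 714 and 1151 CPM in non-cycling cells. Megakaryocytic cells had the opposite order of *MT2A*, with 99.4 and 119 CPM in cycling and 33.1 and 74.8 CPM in non-cycling cells. The difference between these lineages was not tested. The classes were set on raw UMIs, so the cycling cells were the deeper ones, and depth was not held equal. Without cells over 20000 UMIs the summed metallothionein level of erythroid cells was 1400 CPM, against 848 CPM with them. The part of depth in the differences by proliferation was not tested.

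Lineages were then divided by genes that are no members. Endothelial cells with *NR2F2*, a venous factor, had 36.9 and 99.7 CPM of *MT2A*, against 5.43 and 10.5 CPM in those with *CXCR4*, a gene of arterial endothelium. *MT2A* was higher by 3.00 on the log2 scale (SE 0.58, edgeR adjusted p = 0.00314) and was the 1 of 6 tested members called, with 19.5% of 17153 genes called in either direction. Each organoid alone gave 2.76 and 3.25. The low mean of endothelial cells therefore covered a several-fold range, in which the *NR2F2* cells lay on either side of the megakaryocytic values.

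Leukocytes with *C1QA*, a complement gene of macrophages, had 7.23 and 6.51 CPM of *MT1G*, against 0.673 and 0.920 CPM in those with *MPO*, a neutrophil granule gene. *MT1G* (3.18 ± 0.58, edgeR adjusted p = 0.00252) and *MT1X* (1.64 ± 0.34, adjusted p = 0.00596) were higher in the *C1QA* cells, 2 of 6 tested members (16.3% of all genes called). *MT1X* was 67.5 and 59.2 CPM against 13.2 and 35.0, so its size was smaller in 33.10, which alone gave 0.74 and had only 47 *MPO* cells. *MT2A* was 210 and 156 CPM with *C1QA* and 102 and 194 CPM with *MPO*, in opposite orders in the organoids (0.40 ± 0.51, edgeR adjusted p = 0.675). Together they held 43 and 3 of the 296 *MT1G* UMIs of the *PTPRC* gate of 32.7, so most came from leukocytes outside both. For *MT1G* 33.10 alone gave 2.27.

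In mesenchymal cells *MT1E* was lower in cells with *WT1*, an epicardial factor, than in those with *LUM*, a fibroblast matrix gene (0.908 and 1.08 against 19.6 and 4.26 CPM). It fell by 3.77 on the log2 scale (SE 0.83, edgeR adjusted p = 0.0158) and was the 1 of 6 tested members called (8.34% of all genes called), and 33.10 alone gave -1.90. *MT2A* had 37.8 and 115 CPM with *WT1* and 103 and 199 CPM with *LUM*, lower in each organoid. Its difference of -1.06 (SE 0.50, edgeR adjusted p = 0.223) passed with the organoid as a block (-1.13, adjusted p = 0.0422), where 2 members were called, and without the filter on low counts (-1.09, adjusted p = 1.33e-09).

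**Figure D5:**
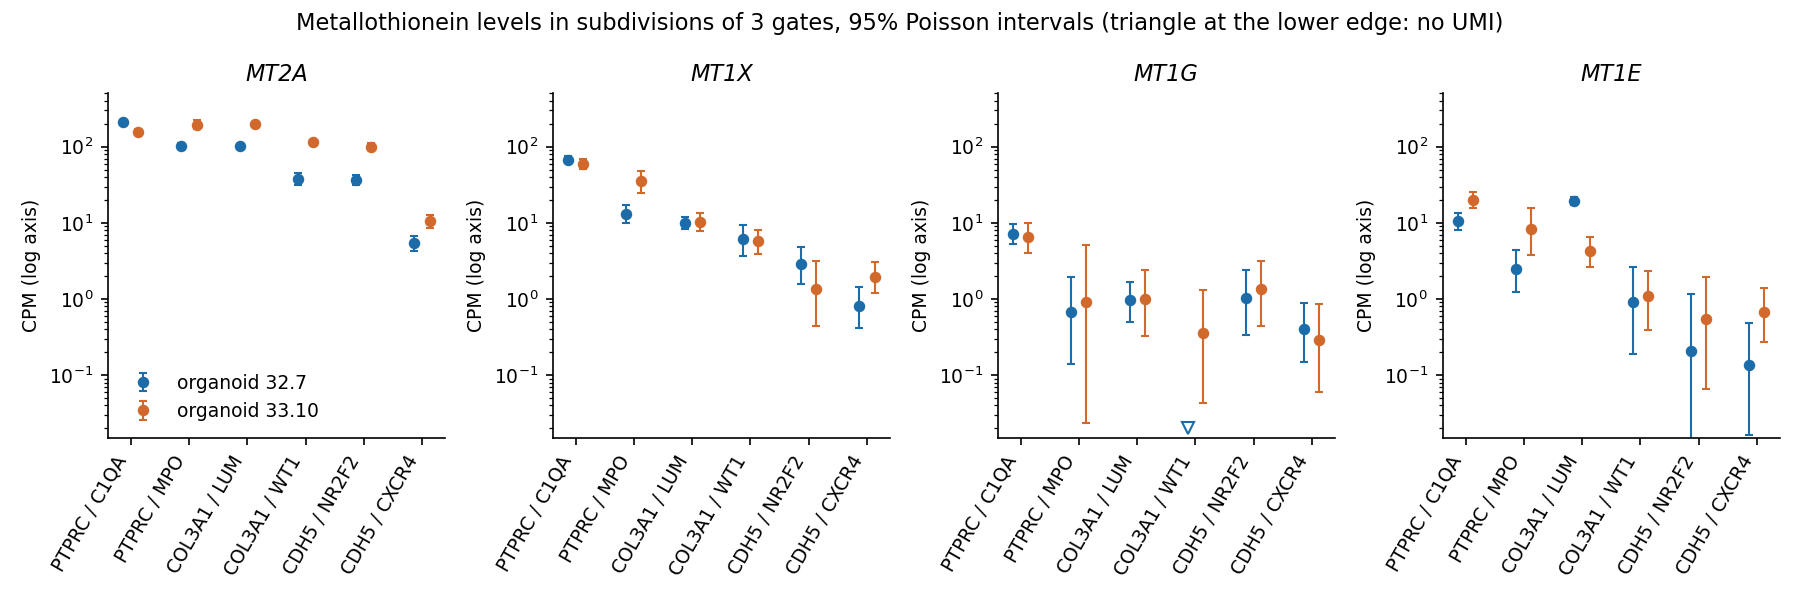
Levels of *MT2A*, *MT1X*, *MT1G* and *MT1E* in CPM (log axis) in subdivisions of the *PTPRC*, *COL3A1* and *CDH5* gates, named gate and dividing gene, with 1 point per organoid and 95% Poisson intervals. *MT2A* is 36.9 and 99.7 CPM in *NR2F2* against 5.43 and 10.5 CPM in *CXCR4* endothelial cells.

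The 217 endodermal cells of 32.7 had 37 metallothionein UMIs, with *MT2A* at 13.7 CPM (95% exact Poisson interval 9.06 to 20.0), *MT1X* at 3.56 and *MTF1* at 13.2. Their summed level of 18.8 CPM (13.3 to 26.0) lay between those of the endothelial cells (13.9) and the cardiomyocytes (25.4) of the same organoid. The 10 cells of 33.10 had 3 UMIs of *MT2A* and none of the *MT1* genes, too few to place.

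The zinc transporter families move the metal that metallothioneins bind. Of 10 genes of the exporter family (*SLC30A1* to *SLC30A10*) 3 were higher and 4 lower in erythroid cells, where 22.7% of all genes were higher and 32.8% lower, and 1 was higher and 2 lower in leukocytes, where 28.3% and 26.8% were. The largest difference was that of *SLC30A10*, which belongs to this family by sequence but is known as an exporter of manganese, with 109.7 and 105.6 CPM in erythroid cells and no more than 10.4 CPM in any other lineage (log2 fold change 5.36 ± 0.11, edgeR adjusted p = 1.37e-10). *SLC30A1* was higher in erythroid cells by 0.52 in the fit (SE 0.17, edgeR adjusted p = 0.0239). It had 6.54 and 10.1 CPM there and 8.73 and 8.82 in leukocytes. By CPM the rise was seen in 33.10 alone. In 32.7, cells without family UMIs, most of each gate, had 9.445 CPM in endothelial, 9.15 in megakaryocytic and 7.14 in cardiomyocyte gates. These lay above the erythroid 6.54, and the mesenchymal 6.06 lay below it. In 33.10 the same gates had 6.53, 8.49, 7.04 and 6.33, all below the erythroid 10.1.

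Of 14 importers (*SLC39A1* to *SLC39A14*) 12 were tested, of which 4 were higher and 5 lower in erythroid cells and 3 higher and 2 lower in leukocytes, beside the same shares of all genes. *SLC39A8*, an importer of zinc and manganese, had 127 and 152 CPM in erythroid cells and no more than 24.0 CPM in the other lineages (3.52 ± 0.10, edgeR adjusted p = 9.32e-10). *SLC39A13* and *SLC39A14* were lower there (-1.55 and -1.38). In leukocytes *SLC39A11* was the importer with the largest difference, at 155 and 160 CPM against no more than 42.1 (2.28 ± 0.09, adjusted p = 5.16e-09).

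Of 8 copper-handling genes 0 were higher and 4 lower in erythroid cells (22.7% of all genes higher, 32.8% lower), including the exporter *ATP7A* (-1.03 ± 0.12, edgeR adjusted p = 3e-05). In leukocytes 3 of 8 were higher and 2 lower (28.3% of all genes higher, 26.8% lower), among them the copper transporter *SLC31A2* at 15.8 and 11.6 CPM against no more than 2.79 (3.38 ± 0.27, adjusted p = 1.13e-06). *SLC31A2* was also among the 5 genes most like *MTF1* over the 12 sums.

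Oxidative stress genes were higher in erythroid cells in 6 of 7 cases and lower in 1, with a median log2 fold change of 0.89, where 22.7% of all genes were higher and 32.8% lower with a median of -0.26. The cystine importer *SLC7A11* had 55.4 and 72.8 CPM there (2.10 ± 0.11, edgeR adjusted p = 1.12e-07) and *GCLC*, an enzyme of glutathione synthesis, 27.9 and 30.04 (1.59 ± 0.11, adjusted p = 5.6e-07), whereas *NQO1* was lower (-1.23). Leukocytes had 4 of 7 higher and 1 lower (28.3% of all genes higher, 26.8% lower), led by *HMOX1* at 64.0 and 99.2 CPM (3.17 ± 0.26, edgeR adjusted p = 1.46e-06). Megakaryocytic cells, with far less metallothionein, also had 4 of 7 higher and 2 lower. Endothelial cells had 2 higher and 2 lower, cardiomyocytes 1 and 4 and mesenchymal cells 1 and 5, beside the shares of all genes given above. Glucocorticoid-induced genes had 2 of 6 higher and 1 lower in erythroid cells and 2 higher and 3 lower in leukocytes, compared with 3 higher and 1 lower in megakaryocytic cells (24.7% of all genes higher, 26.1% lower), where *ZBTB16*, *KLF9* and *TSC22D3* were higher by 3.81, 3.31 and 2.19.

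Immediate early and heat-shock genes, which rise when tissue is dissociated, had 2 of 9 higher and 3 lower in erythroid cells (22.7% of all genes higher, 32.8% lower). *FOS* stood at 2.77 and 1.47 CPM there (-2.01 ± 0.23, edgeR adjusted p = 2.27e-05), below all other lineages. In leukocytes 4 of 9 were higher and 1 lower, with *EGR1* and *FOS* higher by 2.25 and 1.95. Megakaryocytic cells had the most, with 6 of 9 higher and 0 lower (24.7% of all genes higher, 26.1% lower). Endothelial cells had 4 higher and 1 lower, cardiomyocytes 0 and 7 and mesenchymal cells 2 and 2, beside the shares of all genes given above. The part of these genes in the metallothionein levels was not tested.

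The genes whose levels over the 12 sums were most like the summed metallothioneins, by Pearson's r of log2(CPM + 1), were *OVOL2* (0.963), *AC002116.2* (0.953), *RPL13A* (0.952), *POLE2* (0.951) and *CENPH* (0.95) of 21456 tested genes. *OVOL2* ran from 11.2 and 12.3 CPM in erythroid cells to 3.89 and 5.43 in endothelial cells. For *MTF1* they were *RAB39A* (0.975), *SLC31A2* (0.974), *CEACAM21* (0.972), *PCM1* (0.97) and *AC005632.3* (0.968). These lists are ranks over sums that share 2 libraries.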

How the data were processed

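Reads were mapped by the authors to GRCh38 with Cell Ranger 7.0.0, intronic reads included. The deposited values are whole UMI counts per gene and barcode, neither normalized nor cleared of free RNA, and reads that fit several near-identical *MT1* copies are uncertain. Members and gene lists were chosen with earlier results of these data known, so p-values are not independent support.

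Cells with 50 to 11000 genes and under 30% mitochondrial UMIs were kept (16792 and 19893). Gates required at least 50 UMIs of *HBZ*, 20 of *PF4*, 3 of *PTPRC* or *CDH5*, or 10 of *MYH6*, *COL3A1* or *AFP*. Cells that reached several gates were left out, in place of a doublet caller (1141 and 1536). Subdivisions needed at least 2 UMIs of *WT1*, *NR2F2* or *CXCR4*, 5 of *LUM* or 3 of *C1QA* or *MPO*, and 0 of the opposing gene.

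Counts were summed per gate and organoid and fitted with edgeR 4.0.16 (R 4.3.3, TMM, filterByExpr, quasi-likelihood test, Benjamini-Hochberg adjustment, threshold 0.05). On simulated sums, 39, 11 and 79 of 100 changes of 1 log2 unit were recovered in the lineage, subdivision and cycling fits. False calls were 3.6%, 6.52% and 4.4% of the calls. The simulated sums were independent and of fixed dispersion, so pairing by organoid was not covered. Sums needed 20 cells in both organoids. The *AFP* gate missed this, so 12 sums of 6 lineages entered the fit, not the 14 planned. The standard error is the log2 fold change divided by the square root of F. Lineages of an organoid are paired by origin. Correlations of their deviations from the lineage means ran from 0.0962 to 0.343 over 15 lineage pairs. Single-organoid values are log2 ratios of CPM with 0.5 UMIs added, without TMM, and carry no test. Gene positions follow GENCODE. Named genes were the members, other metallothioneins, and up to 3 called genes with the largest change per list and lineage. *SLC30A1*, *HMOX1*, *GCLM* and *MKI67* by metallothionein class were named after their values were seen. Alternatives were DESeq2 1.42.0, no filter, an organoid block, other gates and cell filters, thinning and removal of library profile. Intervals cover counting error only.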

Additional observations from a re-analysis of the deposited data

How the results depend on the processing

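The counts of called members against the other lineages stayed within 1.5 times for erythroid cells (6 of 7) under all 12 alternatives. In these, 3224 to 5478 of all genes were higher, of 16766 to 32544 tested. Brackets below give the calls among all genes, higher and lower, of the genes tested. Removal of 10% of the library profile, an assumed share, left 1 call each for the *PF4* (5572 and 4312 of 21330) and *COL3A1* gates (7350 and 3606). It left 3 for *CDH5* (6206 and 4769) and 2 for *MYH6* (7186 and 5062). Thinned cells left 1 for *PF4* (3827 and 3616 of 16766) and 1 for *COL3A1* (4661 and 3133). Halved thresholds left 1 for *PF4* (5458 and 5528 of 21649) and doubled thresholds 4 for *PTPRC* (5642 and 5539 of 20602). Keeping cells of several gates left 3 for *CDH5* (5024 and 5172 of 23054) and 2 for *MYH6* (5385 and 4795). The *COL3A1* with *PF4* comparison, at 0, had 1 call with DESeq2, no filter, halved or doubled thresholds, cells over 20000 UMIs left out, profile removal or thinning, and 2 with gates per 10000 UMIs. In these settings 4808 to 7255 of all genes were higher and 3910 to 5616 lower, of 16766 to 32544 tested. The *PF4* with *MYH6* comparison, at 1, had 2 with DESeq2, doubled thresholds, gates per 10000 UMIs, cells over 20000 UMIs left out or thinning, and 0 with cells of several gates kept. There 4260 to 5851 of all genes were higher and 4625 to 6305 lower, of 16766 to 23054 tested. *MYH6* with *CDH5* had 1 with thinning (4213 and 4166 of 16766). *WT1* with *LUM* had 3 without the filter (1077 and 1473 of 30222). The cycling comparison had 2 with DESeq2 (2926 and 5394 of 19440), 4 without the filter (2928 and 5146 of 32382) and 0 after profile removal (3379 and 3951 of 19354).

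With the organoid as a replicate block, *WT1* with *LUM* had 2 calls (1202 and 1559 of 17153) and the cycling comparison 0 (3618 and 4920 of 19440). The *MT2A* difference between leukocytes and mesenchymal cells was called with it. No other reported call changed with the block.

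The sign turned for *MT2A* in the *PF4* gate (0.0696 with halved thresholds, 0.375 after profile removal), *MT2A* in the *COL3A1* gate (-0.24 with cells of several gates kept), *MT2A* in cycling cells (0.10 after profile removal) and *MT1X* in the *COL3A1* gate (0.49 after profile removal). The last of these had been called. Summed levels moved beyond 1 SD for *MYH6*, to 22.3 (halved), 48.3 (doubled), 43.0 (per 10000 UMIs), 98.3 (several gates kept), 23.3 (over 20000 UMIs left out) and 9.74 CPM (profile removed). They also moved for *PTPRC* to 231 (doubled), for *PF4* to 127 and *CDH5* to 71.0 (several gates kept), and for *HBZ* to 1400 CPM without cells over 20000 UMIs. Leaving out shared barcodes, an alternative chosen after seeing the data, moved no mean by 1 SD. The causes were not tested. With 2 organoids, differences below about the organoid spread are not resolved.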

Other observations

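Cells that reached no gate held 122 ± 39.4 CPM of *MT2A* (SD, n = 2), between the mesenchymal and the leukocyte means, in 7384 and 8432 cells of organoids 32.7 and 33.10. Cells that reached several gates, which were left out of the comparisons, held 155 ± 73.7 CPM of *MT2A* and had the most UMIs per cell (medians of 25553 and 26809 UMIs). In erythroid cells the heat-shock gene *HSPA1A* was 11.8 and 20.8 CPM without metallothionein UMIs in 3000, 25.7 and 27.4 CPM with 1 to 9 and 18.9 and 140.6 CPM with 10 or more, so only organoid 33.10 had a high value in the last class.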
